A study of Mus musculus with 4 samples.

Results

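The values described here are the genotype by treatment interaction in histone H4 acetylation: how far the effect of lipopolysaccharide (LPS) on the ranking of acetylated regions differed between macrophages with and without HDAC3. Overlapping peaks of the 4 deposited peak lists were merged into 62522 regions, which are all the regions of the series. In each list a region took the percentile rank of its highest-scored peak among all peaks of that list, from just above 0 for the weakest peak to 100 for the strongest, and 0 where no peak was listed. The rank interaction is the LPS minus untreated rank in HDAC3 KO, minus the LPS minus untreated rank in wt, in percentile points. It can run from -200 to 200. The 500 regions with the highest values are called the upper end and the 500 with the lowest the lower end.

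Cells were mouse bone marrow-derived macrophages on day 7 of differentiation, from C57BL/6 mice, and chromatin was precipitated with an antibody against acetylated H4 and sequenced (ChIP-seq). The wt group was HDAC3 +/-, so it carried a heterozygous loss of the gene, and the HDAC3 KO group was HDAC3 -/-. Either genotype was left untreated or given 100 ng/ml LPS for 4 h. How the allele was deleted, and how many mice gave each culture, are not given in the sources used here. Each of the 4 groups had 1 library. No spread between replicates exists, no test between groups was possible, and every difference below is between libraries. Read depth was unknown, and in such bulk samples a change in the share of acetylated cells and a change in acetylation per cell cannot be told apart.

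Acetylation of the H4 tail loosens nucleosome contacts and recruits bromodomain proteins, and it is found at active promoters and enhancers. HDAC3 is the catalytic subunit of the NCoR and SMRT corepressor complexes, which remove acetyl groups at enhancers and promoters that are held in check. In macrophages, LPS acts through the receptor TLR4 and drives NF-kB, AP-1 and interferon regulatory factors to such elements. The interaction addresses whether this remodelling ran the same way when HDAC3 was missing. The peak coordinates are on the mm9 mouse build, for which no gene annotation or genome was used here. Regions are therefore given by position, without gene names or sequence, and neither the macrophage markers nor the Hdac3 locus were examined.

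The rank interaction leaned to the positive side. Its median over all regions was 7.05 points, with an interquartile range of -9.46 to 27.0, and 62.4% of regions were above 0. At least 50 points were reached by 5538 regions (8.86%) on the positive side and by 1563 regions (2.50%) on the negative side, so that 78.0% of the regions past 50 points were positive. A positive value means that LPS went with a higher rank, or a smaller drop in rank, in HDAC3 KO than in wt.

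The lean ran toward the longer lists, and ranks from lists of different lengths do not by themselves show a change. Untreated wt and HDAC3 KO given LPS, the lists that enter with a plus sign, held 48706 and 45589 peaks. wt given LPS and untreated HDAC3 KO, which enter with a minus sign, held 39550 and 41956. Their mean rank over all regions, with 0 for no peak, was 30.8 and 32.5 for the first pair and 27.1 and 27.6 for the second, and with these signs the means combine to the mean interaction of 8.70. When every list was reduced to its 39550 highest-scored peaks, the median interaction was 0.07 points and the counts were 3123 and 2384 of 55430 regions, or 56.7% positive. Lists of 20000 peaks gave a median of -0.43, counts of 1855 and 1719, and 51.9% positive. Subtracting the median from the values as deposited gave 59.1%. Subtracting the median centres the values by construction. Lists of equal length have the same total of peak ranks, which draws the mean interaction toward 0 without fixing it there. Regions with a peak then still numbered 30200 in untreated wt, 32442 in wt given LPS, 31108 in untreated HDAC3 KO and 34713 in HDAC3 KO given LPS. The mean interaction in lists of 39550 peaks was 0.90 points. These settings do not show what gave rise to the lean. The excess of positive regions is therefore not given as a property of HDAC3 KO macrophages, and the most extreme regions below are also given with their value in lists of equal length.

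**Figure D1:**
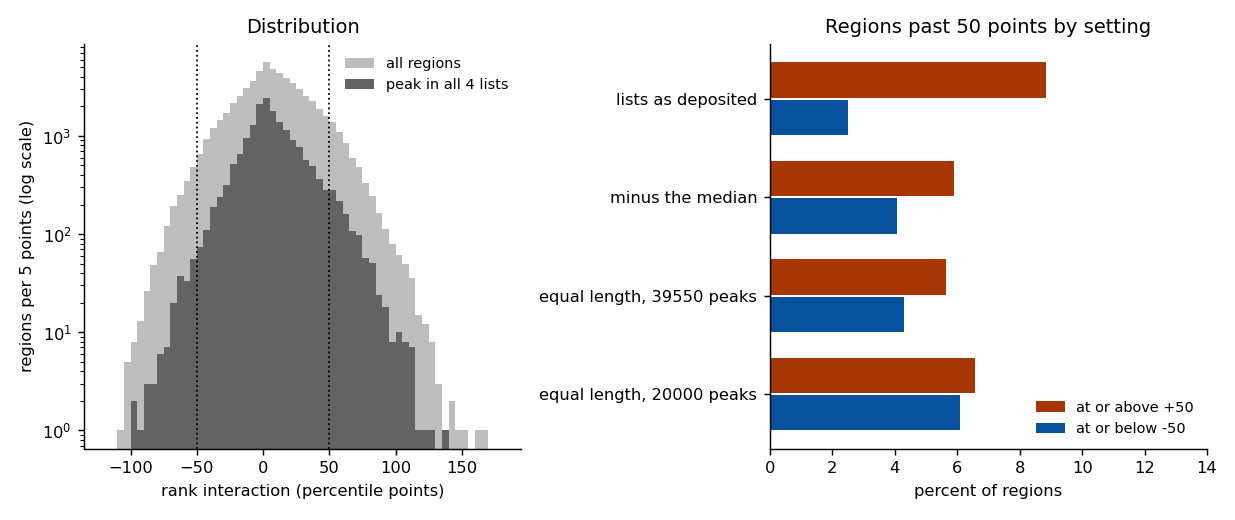
Left: number of regions per 5 points of rank interaction (log axis), for all regions and for those with a peak in all 4 lists, with dotted lines at 50 points on either side. Right: percent of regions past 50 points in each direction under 4 settings; the positive bar is 8.86% as deposited and 6.57% with 20000 peaks per list, where the negative bar reaches 6.09%.

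The regions with a peak in all 4 lists hold no missed call. There were 17836 of them, or 28.5% of all regions, and their median interaction was 4.66 points. At least 25 points were reached by 3536 (19.8%) on the positive and 1096 (6.14%) on the negative side. This split also differed between settings: it was 2238 against 2094 in lists of equal length, 2516 against 1863 after subtracting the median over all regions, and 1519 against 1716 with 20000 peaks per list. Which side held more regions thus depended on the setting. Ranking the four-list regions among themselves gave 2773 against 2761, but this sets the mean interaction to 0 by construction, so nothing is read from that balance.

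Few regions had LPS differences of opposite sign in the genotypes. A rank at least 25 points lower with LPS in wt and at least 25 points higher with LPS in HDAC3 KO occurred at 823 regions (1.32%), and the opposite combination at 117 (0.19%). In lists of equal length these numbers were 404 and 238, and with the 20000 highest-scored peaks 211 and 245, so the order of the pair turned there. Differences of at least 25 points in the same direction were more frequent, with 4081 regions (6.53%) higher and 3496 (5.59%) lower in both genotypes. In 49.0% of regions both differences were under 25 points.

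**Figure D2:**
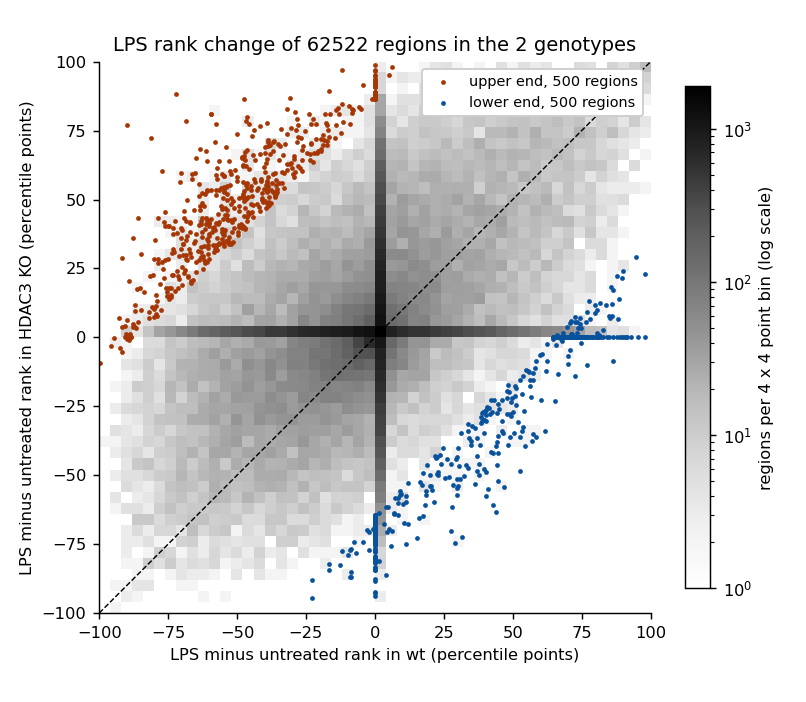
LPS minus untreated rank in wt (x axis) and in HDAC3 KO (y axis), in percentile points; grey shows the number of regions per bin on a log scale, and points are the 500 regions of each end. The dashed line marks equal differences, and the dark bands at 0 include regions with no peak in either library of a genotype. The upper end lies mostly where wt is below 0 and HDAC3 KO above 0 (352 of 500 by at least 25 points each), and the lower end lies in the opposite corner less often in the lists as deposited (90 of 500), an order that turned with 20000 peaks per list (28.2 against 32.0%).

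The ends were made of different call patterns. Peaks in untreated wt and HDAC3 KO given LPS alone made up 175 of the 500 upper end regions (35.0%, against 1.87% of all regions). A further 116 lacked a peak only in wt given LPS, 99 lacked one only in untreated HDAC3 KO, and 74 had a peak in all 4 lists. At the lower end, 148 regions (29.6%, against 7.58% of all regions) had a peak in wt given LPS alone and 87 in untreated HDAC3 KO alone. The mirror image of the first upper pattern, peaks in wt given LPS and untreated HDAC3 KO alone, gave 64. The definition of the interaction favours these patterns, so their shares are a description of the ends. The make-up of the ends also depended on list length. In lists of equal length, peaks in untreated wt and HDAC3 KO given LPS alone made up 23.0% of the upper end, and 11.8% with 20000 peaks per list. HDAC3 KO given LPS as the only list with a peak went from 5.4% to 16.2% and 20.4%, so with 20000 peaks it was the more frequent pattern. Opposite LPS differences of at least 25 points were found in 70.4% of the upper and 18% of the lower end as deposited, in 47.6% and 29.8% in lists of equal length, and in 28.2% and 32.0% with 20000 peaks, where the order of the ends turned. In lists of equal length 394 of the 500 upper and 335 of the 500 lower end regions overlapped an end region again, and with 20000 peaks per list 97 and 49 did.

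By median rank, the peaks at the ends were of medium score in the lists favoured by the definition and weak in the others. Where upper end regions had a peak, the median rank was 61.0 in untreated wt, 17.3 in wt given LPS, 23.0 in untreated HDAC3 KO and 61.3 in HDAC3 KO given LPS. At the lower end it was 15.1, 66.7, 64.8 and 21.6 in the same order, and over all regions 54.5, 53.7, 54.2 and 51.8. The regions had a median width of 1273 bp at the upper and 1044 bp at the lower end, against 778 bp for all regions and 1761 bp for those with a peak in all 4 lists. Seen by genotype, the median HDAC3 KO minus wt rank at the upper end was -47.9 points in untreated and 52.7 points in LPS-treated cells. At the lower end these differences were 36.5 and -40.9 points. The interaction is computed from these same ranks, so the rank values describe how the ends were chosen. The scores given below are not on a common level, since high scores were more frequent in both LPS lists. The median score was 116 in untreated wt, 141 in wt given LPS, 122 in untreated HDAC3 KO and 145 in HDAC3 KO given LPS. In the same order, 5, 288, 13 and 370 peaks had a score of 3100.

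The highest rank interaction, 167 points, belonged to a region at chromosome 16, 84814139 to 84815659. The authors' score there was 453 in untreated wt and 404 in HDAC3 KO given LPS, and no peak was listed in wt given LPS or untreated HDAC3 KO. Its peaks were of similar width, 1351 and 1437 bp. The element was thus called in wt only before LPS and in HDAC3 KO only after it. In lists of equal length the value was 161 points. All 6 other regions within 50 kb had an interaction above 0, with a median of 32.6 points.

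A second region with almost the same calls lay at chromosome 7, 81668809 to 81670982. It was scored 276 in untreated wt, 55.2 in wt given LPS and 721 in HDAC3 KO given LPS, and had no peak in untreated HDAC3 KO. The listed peaks covered 810, 426 and 2170 bp in that order, so the HDAC3 KO given LPS peak spanned the whole region. Its interaction was 160 points, and 154 points in lists of equal length.

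Of the remaining regions among the 8 highest, 4 had peaks in untreated wt and HDAC3 KO given LPS alone. These were chromosome 17, 87569118 to 87571499 (interaction 154), chromosome 6, 32732938 to 32733701 (147), chromosome 8, 97092585 to 97094068 (140), and chromosome 5, 124523582 to 124524804 (135). Their scores ran from 141 to 304 in untreated wt and from 327 to 481 in HDAC3 KO given LPS. The chromosome 4 region at 62094770 to 62096802 (interaction 140) had a small additional peak in wt given LPS, with a score of 55.6. The 5 values were 145, 136, 128, 122 and 130 points in lists of equal length. The peaks of untreated wt in these regions were of moderate score, and with 20000 peaks per list the chromosome 17 region came to 91.6 points and the values of the chromosome 6, chromosome 8, chromosome 5 and chromosome 4 regions came to 74.1, 58.0, 48.5 and 75.9 points. The chromosome 6 region came to 35.6 points when regions were merged across 500 bp and to 85.8 when ranked by covered length.

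The seventh of the 8 was the region at chromosome 9, 40554088 to 40557267, with 137 points and a peak in all 4 lists. Scores were 343 and 55.4 in wt without and with LPS, and 85.0 and 1178 in HDAC3 KO without and with LPS. The corresponding ranks were 84.2, 7.12, 34.3 and 94.5. This region kept 137 points in lists of equal length and had 149 with 20000 peaks per list. It lies beside other peaks, and when peaks within 1000 bp were counted its value was 29.9 points, and 79.3 when ranked by covered length.

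**Figure D3:**
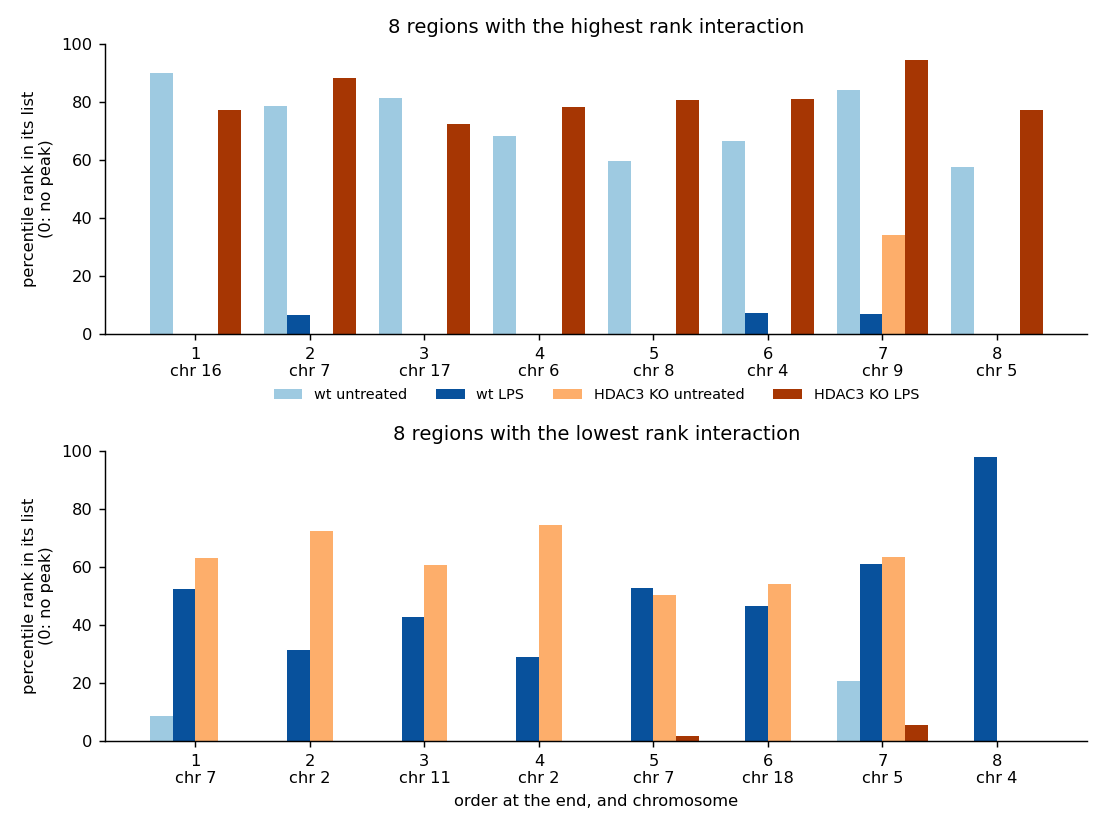
Percentile rank (y axis, 0 where no peak was listed) in each of the 4 libraries for the 8 regions with the highest (top) and the 8 with the lowest (bottom) rank interaction, in order along the x axis. In the top panel the untreated wt and HDAC3 KO given LPS bars stand between 57.5 and 94.5 and the other bars at or below 34.3; in the bottom panel the last region has a single bar, at 97.9 in wt given LPS.

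The lower end reached less far from 0. Its most extreme region, at chromosome 7, 135555443 to 135556405, had an interaction of -107 points. It was scored 55.6 in untreated wt, 153 in wt given LPS and 177 in untreated HDAC3 KO, and no peak was listed in HDAC3 KO given LPS. These scores ranked between 8.55 and 63.2 in their lists, and the value was -114 points in lists of equal length and -29.1 with 20000 peaks per list.

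Peaks in wt given LPS and untreated HDAC3 KO alone were found at 4 of the 8 lowest regions. They lay at chromosome 2, 119500831 to 119501395 (interaction -104), chromosome 11, 106348500 to 106349209 (-104), chromosome 2, 30327702 to 30328915 (-104), and chromosome 18, 88992081 to 88993326 (-101). Scores were 82.1 to 128 in wt given LPS and 136 to 256 in untreated HDAC3 KO. On chromosome 7, 80596805 to 80597897 (-101) had those peaks, scored 153 and 123, and another of 51.4 in HDAC3 KO given LPS. The 5 values lay between -102 and -98.1 points in lists of equal length. These weak calls were sensitive to what lay next to them: with peaks within 1000 bp counted, the first chromosome 2 region came to -6.28 points (-41.5 when ranked by covered length), the chromosome 11 region to -40.5 (-3.97 when regions were merged across 500 bp) and the chromosome 18 region to -54.3. With 20000 peaks per list the chromosome 7 and chromosome 18 regions were at -6.39 and -3.78 points, the chromosome 11 region at -17.9, and the chromosome 2 regions at -41.9 and -46.4.

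One lower end region was of another kind. At chromosome 4, 124467406 to 124469633, wt given LPS had a single strong peak of 2228 bp with a score of 1973 and a rank of 97.9, and no other list had a peak there. Its interaction of -97.9 points was -97.9 in lists of equal length, -95.9 with 20000 peaks per list and -97.9 when neighbouring peaks counted. Around it the calls were unremarkable: of 7 other regions within 50 kb, 4 were above and 3 below 0, with a median of 1.16 points. The region is thus a strong call of wt after LPS that had no counterpart in the other libraries.

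Among regions with a peak in all 4 lists, the highest values after the chromosome 9 region were at chromosome 9, 45981996 to 45984795 (129 points), and chromosome 7, 152290533 to 152292598 (122). Next came the regions on chromosome 2, 35544670 to 35547160 (118), and on chromosome 18, 38530870 to 38532715 (115). The chromosome 2 region was scored 314 and 61.5 in wt without and with LPS, and 104 and 1051 in HDAC3 KO without and with LPS. Its value was 116 points in lists of equal length and 141 with 20000 peaks per list. In all 5 regions the wt score was lower with LPS and the HDAC3 KO score higher. The other chromosome 9 region had 124, the chromosome 7 region 119.5 and the chromosome 18 region 109.6 points in lists of equal length. With 20000 peaks per list the other chromosome 9 region and the chromosome 18 region came to 84.3 and 60.9 points, and ranked by covered length the latter had 35.0. The chromosome 7 region came to 8.89 points when regions were merged across 500 bp, and to 43.9 when ranked by covered length.

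On the negative side, the four-list regions were led by chromosome 5, 144248333 to 144250019 (-98.1 points). Scores there were 65.6 and 205 in wt without and with LPS, and 178 and 54.3 in HDAC3 KO. Its value was -119.99 points in lists of equal length, -46.4 with 20000 peaks per list and -63.0 when ranked by covered length. All 8 other regions within 50 kb of it were above 0. A different kind of region was that at chromosome 10, 79395048 to 79398158 (-90.3). It had a score of 717 and 3022 bp of peaks in untreated HDAC3 KO, while the other 3 lists gave scores of 57.3 to 71.9 and 464 to 470 bp. Of 18 other regions within 50 kb of it, 14 were below 0. Its value was -118 in lists of equal length, -90.2 with 20000 peaks per list and -0.68 when regions were merged across 500 bp, which joined it to neighbouring peaks.

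This group also held chromosome 10, 124827266 to 124828715 (-96.7), as well as 87815544 to 87817949 of the same chromosome (-88.8) and chromosome 6, 58545888 to 58546817 (-87.6). Their values in lists of equal length were -70.8, -114 and -115 points. The first of them had weak peaks throughout, with scores of 50.6 to 132, and its value became 3.78 with regions merged across 500 bp or with peaks within 1000 bp counted. It was -1.26 with 20000 peaks per list and -49.1 when ranked by covered length. The second had a score of 469 in wt given LPS against 73.8 to 181 in the other lists, and came to -41.3 points with peaks within 1000 bp counted. The last came to -57.9 points with 20000 peaks per list and to -33.0 when ranked by covered length.

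To set weak calls aside, regions were also taken where at least 3 lists had a peak and every listed peak reached the median score of its list. The highest was at chromosome 8, 124663018 to 124665280 (120 points). It was scored 502 in untreated wt, 160 in untreated HDAC3 KO and 733 in HDAC3 KO given LPS, and only wt given LPS had no peak. Chromosome 11, 62862878 to 62867642 (110 points) showed the same calls over a broader domain, with scores of 431, 239 and 1039 and 3415, 4057 and 4694 bp of peaks. Both are elements that were called in untreated cells of either genotype and after LPS in HDAC3 KO only. In lists of equal length they had 119 and 108 points, and with 20000 peaks per list 138 and 115. Ranked by covered length, the chromosome 8 region had 75.9 points.

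The same calls were found at chromosome 16, 11442625 to 11443702 (104 points), with scores of 195, 124 and 631. The other regions of this group lacked a peak in untreated HDAC3 KO instead. Chromosome 3, 121303515 to 121306919 (109 points) was scored 246 and 226 in wt without and with LPS and 1576 in HDAC3 KO given LPS. Chromosome 6, 50633716 to 50635066 (104 points) was scored 397 and 188 in wt and 367 in HDAC3 KO given LPS. These 3 regions had 97.2, 102 and 97.1 points in lists of equal length.

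All 5 of the corresponding regions at the lower end lacked a peak in untreated wt alone. The first lay at chromosome 6, 97756985 to 97758028 (-95.1 points), with scores of 640 in wt given LPS, 172 in untreated HDAC3 KO and 163 in HDAC3 KO given LPS. Another region of the group lay on the same chromosome, 97171118 to 97172875 (-87.0), with scores of 392, 216 and 200. At both, a peak was called after LPS in wt, whereas HDAC3 KO had a peak of medium rank before and after LPS. Their values were -99.9 and -91.3 in lists of equal length and -94.1 and -82.8 with 20000 peaks per list.

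Closer to 0 in this group were 109271930 to 109278932 on chromosome 11 (-81.2), 139956731 to 139958625 on chromosome 7 (-80.4), and chromosome 4, 47326476 to 47329928 (-79.8). With lists of equal length they had -80.9, -84.5 and -82.9 points. In the chromosome 11 region the score was 704 in wt given LPS, 552 in untreated HDAC3 KO and 2493 in HDAC3 KO given LPS, with 4737, 2835 and 6888 bp of peaks. Its rank in HDAC3 KO was already 91.8 before LPS, so that the score of 2493 after LPS stood only 6.84 rank points higher. This is a case where the rank interaction is negative although HDAC3 KO given LPS had the highest score and the widest peak. High scores were more frequent in both LPS lists, so the scores alone do not set this region apart. With regions merged across 500 bp the value was 3.61, and with peaks within 1000 bp counted -39.9. The chromosome 7 region came to -40.2 points when ranked by covered length.

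The limits of the ends are arbitrary and the values near them continuous. The last 3 regions inside the upper end had interactions of 86.2 to 86.3 points and the next 3 outside 86.1 to 86.2. At the lower end the 6 regions on either side of the limit all stood at -64.6 points. A region just inside the lower end, at chromosome 9, 21524343 to 21524854, had a single peak in untreated HDAC3 KO with a score of 184, and its value was -62.4 in lists of equal length and 24.7 when peaks within 1000 bp counted.

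Regions near the upper end had higher interactions, and regions near the lower end lower interactions, than regions elsewhere. Among regions outside both ends that lay within 5 kb of an upper end region, the median interaction was 22.6 points and 84.8% were above 0 (n = 732). The median was 16.1 points at 5 to 10 kb, 15.4 at 10 to 25 kb, 11.2 at 25 to 50 kb and 9.99 at 50 to 100 kb, and it was 6.49 at 250 to 1000 kb. The level over all regions outside both ends was 7.05 points, with 62.6% above 0. Around the lower end the medians were below the general level up to 100 kb, and below 0 up to 10 kb only: -11.1 points within 5 kb, with 32.3% above 0 (n = 749), then -4.13, 2.44, 2.90 and 4.81 at the same distances, and 7.42 at 250 to 1000 kb.

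This gradient was also found in lists of equal length, where the general level is drawn toward 0 by construction. There the medians around the upper end were 21.0, 12.4, 8.71, 6.11 and 3.22 points from the nearest to the 50 to 100 kb class, and -0.65 at 250 to 1000 kb. Around the lower end they were -15.6, -12.2, -4.94, -4.12 and -1.38, and 0.13 at 250 to 1000 kb, against 0.07 over all regions outside both ends. With 20000 peaks per list the median within 5 kb was 18.6 around the upper and -13.8 around the lower end. Neighbouring regions share the 4 libraries and are not replicates, so the gradient describes how far along the chromosome the difference between these libraries extended. Among neighbours with a peak in all 4 lists, the median within 5 kb was 21.5 points around the upper end (n = 146) and 0.31 around the lower (n = 157), where all four-list regions outside the ends stood at 4.64. In the next classes, out to 50 to 100 kb, these medians were 14.2, 12.6, 9.46 and 7.68 around the upper end. Around the lower end they were -1.42, 3.41, 2.20 and 3.62, without a steady gradient.

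**Figure D4:**
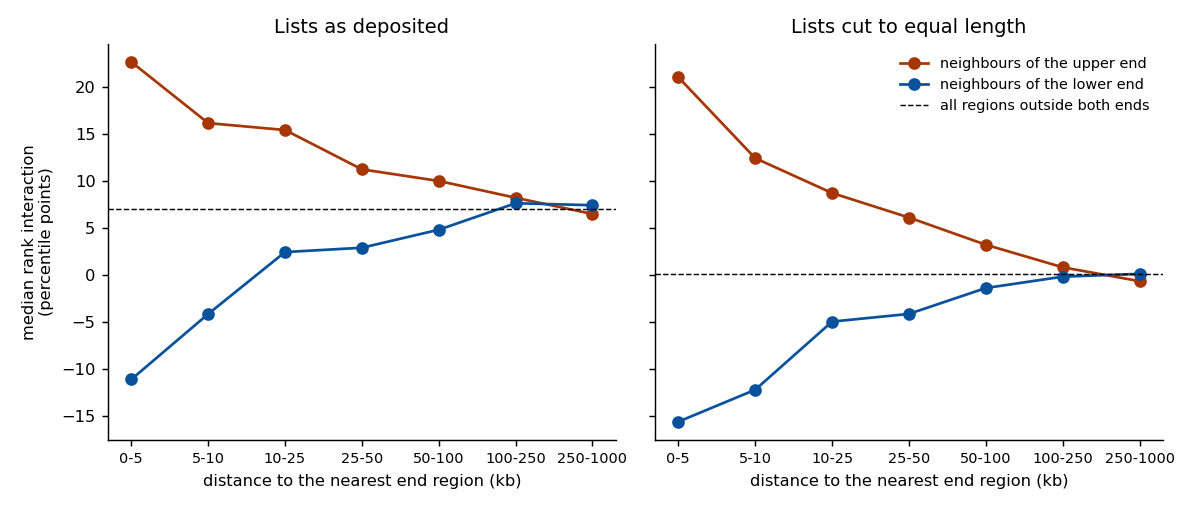
Median rank interaction (y axis, percentile points) of regions outside both ends by distance to the nearest end region (x axis, kb classes of unequal width), for the lists as deposited (left) and lists cut to 39550 peaks each (right); the dashed line is the median of all regions outside both ends. Neighbours of the upper end start at 22.6 and 21.0 points and those of the lower end at -11.1 and -15.6, and both approach the dashed line beyond 100 kb.

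Covered length describes the same called peaks with another measure, so its agreement with the ranks is not separate support. In the 50 kb on either side of an upper end region, the region itself left out, peaks covered a median of 4.11 kb in untreated wt, 3.81 kb in wt given LPS, 3.67 kb in untreated HDAC3 KO and 6.99 kb in HDAC3 KO given LPS. For all regions these medians were 3.87, 3.88, 3.72 and 5.56 kb. The difference of LPS effects in covered length was above 0 around 88.4% of upper end and 48.6% of lower end regions, against 71.2% of all regions. After each list was divided by its total covered length these shares were 74.8, 25.8 and 48.3%. HDAC3 KO given LPS covered 50.4 Mb in all, against 35.4 to 37.4 Mb in the other lists, so the scaled shares are the ones to compare.

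**Figure D5:**
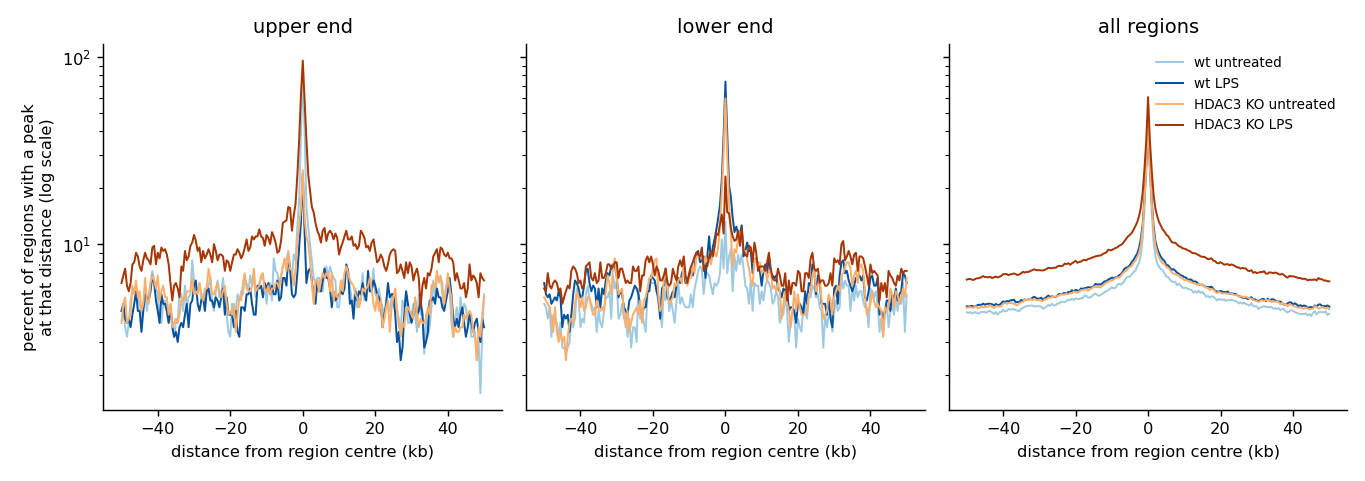
Percent of regions with a peak at each distance from the region centre (x axis, kb; y axis, log scale), by library, for the upper end, the lower end and all regions. At 25 to 50 kb from upper end regions HDAC3 KO given LPS covers 7.68% on average and the other lists 4.42 to 4.88%; over all regions these values are 6.89% and 4.48 to 4.92%.

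End regions were partly grouped along the chromosomes. Another region of the same end lay within 50 kb of 73 of the 500 upper end regions (14.6%) and of 91 of the lower end (18.2%). A region of the opposite end lay within 50 kb of 18 (3.60%) at either end. Over all regions, 6.86% had an upper end and 6.39% a lower end region within 50 kb. Of the upper end regions 427 and of the lower end regions 409 stood alone at this distance. Peaks that do not overlap stay separate regions, so nearby pieces of a broad stretch count as a group. On chromosome 16, 4 lower end regions lay within 4.01 kb. Grouping was counted only in the lists as deposited, with regions merged by overlap.

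The longest group was on chromosome 9, from 40449638 to 40566490, with 5 upper end regions, among them the one with 137 points described above. It held 22 regions in all, of which 21 had an interaction above 0 (62.4% over all regions), and their median was 53.5 points. The 5 regions that picked out the group are included in these and the following values. In wt, 15 of these regions had a peak without LPS (16.4 kb in sum) and 8 with it (7.99 kb). In HDAC3 KO, 9 had a peak without LPS (9.08 kb) and 19 with it (25.2 kb). Across this stretch of 117 kb LPS went with fewer peaks in wt and with more in HDAC3 KO. Shorter groups of 3 upper end regions included chromosome 4, 94747755 to 94768224, where wt had 5.80 kb of peaks without LPS and 1.20 kb with it, and HDAC3 KO 5.83 and 11.4 kb.

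The groups of 4 at the lower end consisted mainly of peaks from wt given LPS. On chromosome 2, from 10893024 to 10934317, 4 lower end regions lay among 12 regions. With those 4 included, 11 of the 12 were below 0 (37.6% over all regions). Every one of the 12 was called in wt after LPS (11.8 kb in sum) and 3 were called in wt before it (1.34 kb). No peak was listed in either HDAC3 KO library over these 41.3 kb. The other groups of 4 were shorter. On chromosome 16, 24764512 to 24768524, wt given LPS had 3.62 kb and HDAC3 KO given LPS 0.88 kb of peaks, and on chromosome 13, 42388077 to 42398383, these were 5.53 and 1.51 kb. Neither had a peak in untreated cells of either genotype.

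Fixed windows of 50 kb showed where the differences added up to domains. Of 17547 windows, 526 (3.0%) had an LPS change in covered length at least 5 kb greater in HDAC3 KO than in wt, and 37 (0.211%) at least 5 kb smaller. With covered length divided by each list's total, the counts were 160 and 172. This scaling sets the mean difference over windows to 0 by construction, so nothing is read from that balance. The highest window, at chromosome 10, 18650001 to 18700000, had 24 regions, of which 23 were above 0 with a median rank interaction of 51.2 points. Its difference in covered length was 22.2 kb, or 15.6 kb after scaling. The window at chromosome 4, 104900001 to 104950000, ranked after the chromosome 1 window described next. Peaks of wt covered 1.73 kb there without LPS and 8.69 kb with it, and those of HDAC3 KO 3.54 and 27.4 kb, a larger difference in the same direction.

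The second window, at chromosome 1, 193050001 to 193100000, was of yet another kind, with many peaks before LPS. For wt the covered length was 17.3 kb without LPS and 15.8 kb with it; for HDAC3 KO it was 19.5 and 35.0 kb. None of its 18 regions belonged to the upper end, although 17 were above 0. The median of the 18 was 39.7 points, against 7.05 over all regions. At least 50 points were reached by 5 of them, against 8.86% of all regions. Many positive differences short of the upper end's limit thus made up the domain.

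The 3 windows with the lowest values had more covered length in untreated HDAC3 KO than in any other list. At chromosome 7, 20250001 to 20300000, HDAC3 KO had 23.3 kb without LPS and 10.8 kb with it, while wt had 11.6 and 10.1 kb. All 13 regions of this window had a rank interaction at or below 0, with a median of -38.7 points, and 2 of them belonged to the lower end. At chromosome 9, 114650001 to 114700000, the values for HDAC3 KO were 16.7 and 10.8 kb and for wt 7.96 and 12.1 kb. The window with the lowest value, chromosome 2, 167750001 to 167800000, had a difference of -12.3 kb, and only 2 of its 16 regions were above 0. In these 3 windows untreated HDAC3 KO differed from the other libraries, which were closer to each other.

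End regions were spread over all autosomes. Chromosome 10 held 43 upper end regions (8.6%, against 5.71% of all regions) and 22 of the lower end, and chromosome 17 held 11 (2.20%, against 4.39%) and 22. The X chromosome held 2 upper and 9 lower end regions, against 2.29% of all regions. The ends lay a median of 327 kb (upper) and 363 kb (lower) from the nearest region in the top 10% of scores of every list, and all regions 341 kb. The distance to the strongest constitutive elements thus did not set the ends apart from other regions.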

How the data were processed

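H4 acetylation ChIP-seq peak lists of 4 libraries, 1 per group, were used. The score of each peak is the authors' value as deposited; its scale is not stated, and 5 to 370 peaks per list tie at 3100. Peaks were called with MACS for each library against input, per the file headers. Bowtie and the mm9 build are named in the submitters' processing notes. Versions and settings are not given in the sources used here, and neither is read depth.

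Peaks overlapping by at least 1 bp were merged (41 regions only touch the one before and were kept apart), scores were ranked within each list with ties averaged, and the interaction was computed with Python 3.11.15, numpy 2.4.6, pandas 2.3.3 and scipy 1.17.1. Figures used matplotlib 3.10.9. Regions were grouped by the labels' genotype and treatment. Surroundings were regions with centres within 50 kb. With 1 library per group no library could be left out and no p-value was computed. The calculation was tested on simulated lists, where 20000 of 20000 values were recovered. Simulated regions lay apart and held at most 1 peak per list, so the handling of several peaks of a list was not tested.

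Named regions were the 8 highest and 8 lowest; the 5 highest and 5 lowest with a peak in all 4 lists; the 5 highest and 5 lowest with at least 3 lists at or above the median score and no weaker peak; the 3 on either side of each end's limit; and the 3 highest and 3 lowest windows. Ties were ordered by summed score, then position. Runs of end regions were named by length. The regions, rules and settings were chosen with earlier results of these data known. Planned gene lists, cell type markers and motif counts needed an mm9 annotation and were not run; the available gene table has GRCm38 positions, and coordinates were not converted. Alternatives changed the ranking, merging, peak selection, chromosomes, end size, distances and scaling.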

Additional observations from a re-analysis of the deposited data

Results flagged for a closer look

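The following results concern LPS changes of opposite direction in the genotypes, each by at least 25 percentile points of rank. The difference was not tested, since each group had 1 library. Such changes were found in 823 regions with a lower rank in LPS-treated wt and a higher rank in LPS-treated HDAC3 KO, and in 117 regions with the reverse. Both counts depend on the list lengths given in the report.

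Named regions were chosen for extreme interactions, which favours such changes. Over all regions the first combination was found in 1.32% and the reverse in 0.19%. Of the 34 regions named at the ends, 15 had the first combination. They are chromosome 16, 84814139 (interaction 167.2), chromosome 7, 81668809 (160.4), chromosome 17, 87569118 (153.7), chromosome 6, 32732938 (146.9), chromosome 8, 97092585 (140.4), chromosome 4, 62094770 (140.4), chromosome 9, 40554088 (137.3) and chromosome 5, 124523582 (134.9). With a peak in all 4 lists they are chromosome 9, 45981996 (128.8), chromosome 7, 152290533 (121.6), chromosome 2, 35544670 (118.0) and chromosome 18, 38530870 (115.0). With stronger peaks they are chromosome 8, 124663018 (120.5), chromosome 6, 50633716 (103.8) and chromosome 16, 11442625 (103.7).

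The reverse was found in 10 of the 34 named regions. They are chromosome 7, 135555443 (-107.3), chromosome 2, 119500831 (-103.8), chromosome 11, 106348500 (-103.8), chromosome 2, 30327702 (-103.6), chromosome 7, 80596805 (-101.0) and chromosome 18, 88992081 (-100.9). With a peak in all 4 lists they are chromosome 5, 144248333 (-98.1), chromosome 10, 124827266 (-96.7), chromosome 10, 87815544 (-88.8) and chromosome 6, 58545888 (-87.6).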

How the results depend on the processing

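Regions at or above 50 points numbered 3059 with peaks at or above the median score, 1855 with 20000 peaks per list, and, in settings added after seeing the data, 3123 in lists of equal length and 3684 after subtracting the median (5538 as reported). Regions at or below -50 numbered 916 with summed scores, 955 merged across 500 bp, 997 with peaks at or above the median, 2384 in lists of equal length and 2546 after subtracting the median (1563 as reported). The positive share was 80.8% with ranks over merged regions, 82.5% with summed scores, 80.6% merged across 500 bp, 79.2% with peaks within 1000 bp counted, 75.4% with peaks at or above the median, 51.9% with 20000 peaks, 56.7% in lists of equal length and 59.1% after subtracting the median. Four-list regions at or above 25 points numbered 2327, 1519 and 2238 with peaks at or above the median, 20000 peaks and lists of equal length. Those at or below -25 numbered 1716 and 2094 with 20000 peaks and lists of equal length, 1863 after subtracting the median and 2761 ranked among themselves.

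Peaks in untreated wt and LPS-treated HDAC3 KO alone made up 44.0% of an upper end of 200 and 27.9% of an end of 1000 regions. The neighbours' median within 50 kb, 15.1 points at the upper end, was 8.84 with 20000 peaks, where all regions stood at -0.43. At the lower end it was -0.295. It was -2.59 within 25 kb and -1.63 with 200 regions per end, -7.23 in lists of equal length and -5.23 with 20000 peaks. It turned positive within 100 kb (1.62), at 5 to 50 kb (1.86) and with 1000 regions per end (1.30), each still below the 7.05 of all regions outside the ends. Divided by list totals, the median covered-length difference around the ends was 1.55 and -1.16 kb (3.13 and 0 as reported), and the window counts were 160 and 172.

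Among 46 named regions, none changed sign when ranked by covered length or in lists of equal length. They were named for values far from 0, which favours a kept sign. Values changed by more than a factor of 1.5 at 16 of 46 when ranked by covered length and at 0 of 46 in lists of equal length. The same was found at 20 of 46 with peaks at or above the median score and at 23 of 43 with 20000 peaks per list. Sign changes came with merging across 500 bp on chromosome 10 at 124827266 (3.78) and chromosome 11 at 109271930 (3.61), and with peaks within 1000 bp counted on chromosome 10 at 124827266 (3.78) and chromosome 9 at 21524343 (24.7). The cause was not tested beyond the construction of these settings. No paired analysis was possible because each group had 1 library. Unknown depth limits every count, since weak peaks enter or leave a list with it.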
